A study of Mus musculus with 16 samples.

Results

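The genes described here are 10 immediate-early and flow-responsive genes, Fos, Jun, Egr1, Egr2, Btg2, Ier2, Klf2, Klf4, Klf6 and Nos3. They were taken by name from these classes, with earlier results of these data known. All 10 were found among the 13964 genes of the deposited table, and all 10 passed the filter on low values. They were measured by RNA-seq in 16 libraries of aortic or pulmonary valve, taken by laser microdissection from C57BL/6 mouse embryos at stage E14.5. Each valve was taken from wild types and from mutants, giving 4 groups with 4 libraries in each. Mutants were Jag1flox;Nkx2.5-Cre embryos, which carry a floxed allele of Jag1, a Notch ligand, and a Cre recombinase driven by the cardiac gene Nkx2-5. Recombination is therefore limited to cells in which that driver has been active, and the Cre status of the wild types was not given in the sources used here. Captured tissue is a mixture of cell types, and in such bulk samples fewer cells of a type and less RNA per cell cannot be told apart.

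Immediate-early genes are transcribed within minutes of a growth factor, stress or mechanical signal, from existing transcription factors and without new protein synthesis. Fos and Jun proteins pair to form AP-1, Egr1 and Egr2 are zinc-finger transcription factors, Ier2 is a small nuclear protein and Btg2 restrains cell division. In endothelium, shear stress from blood flow signals through the kinase ERK5 and MEF2 transcription factors to raise Klf2 and Klf4, which in turn raise Nos3, the endothelial nitric oxide synthase. Endocardial KLF2 and nitric oxide signalling are known for their parts in the remodelling of cardiac cushions into valve leaflets.

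All 10 are annotated as protein-coding genes in GENCODE M21 (GRCm38), and positions are given for all but Egr1 (ENSMUSG00000038418), which lies on the plus strand. Also on the plus strand lie Klf2 (ENSMUSG00000055148) at chr8:72319033-72321656, Klf6 (ENSMUSG00000000078) at chr13:5861482-5870394, Nos3 (ENSMUSG00000028978) at chr5:24364810-24384474, Egr2 (ENSMUSG00000037868) at chr10:67535475-67542188 and Fos (ENSMUSG00000021250) at chr12:85473890-85477273. On the minus strand lie Jun (ENSMUSG00000052684) at chr4:95049034-95052222, Klf4 (ENSMUSG00000003032) at chr4:55527143-55532466, Ier2 (ENSMUSG00000053560) at chr8:84661331-84662852 and Btg2 (ENSMUSG00000020423) at chr1:134075170-134079120.

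Promoter sequence is shown for 4 genes: Klf2 and Jun, whose windows hold a MEF2 box, and Egr2 and Btg2, which had lower mutant values in most litter pairs. The windows run from 250 bases before to 50 bases after the gene start in RefSeq (build GRCm38.p6), and 7 of the 10 genes matched, all but Egr1, Ier2 and Nos3. Only bases upstream of that RefSeq start and outside annotated exons are printed, 5′ to 3′ on the strand of the gene, with matches in capitals. The Klf2 run is chr8:72318812-72319032 on the plus strand, and its capitals mark an EGR site at 199 to 191 bases and a MEF2 box at 118 to 109 bases before the start. The Jun run is chr4:95052223-95052472 on the minus strand, with a MEF2 box at 33 to 24 bases before the start. The Egr2 run is chr10:67537619-67537868 on the plus strand, with a CArG box, the site of serum response factor, at 72 to 63 bases before the start. The Btg2 run is chr1:134079156-134079405 on the minus strand, with a cAMP response element at 166 to 159 bases before the start.
Klf2: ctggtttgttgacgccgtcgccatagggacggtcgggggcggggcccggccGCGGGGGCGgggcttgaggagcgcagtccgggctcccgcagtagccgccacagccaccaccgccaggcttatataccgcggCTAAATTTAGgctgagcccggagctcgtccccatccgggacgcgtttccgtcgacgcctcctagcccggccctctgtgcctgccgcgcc
Jun: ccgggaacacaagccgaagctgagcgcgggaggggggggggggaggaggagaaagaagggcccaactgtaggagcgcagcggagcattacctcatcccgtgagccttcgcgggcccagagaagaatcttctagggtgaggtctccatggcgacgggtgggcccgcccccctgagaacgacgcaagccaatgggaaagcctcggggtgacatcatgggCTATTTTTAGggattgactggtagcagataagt
Egr2: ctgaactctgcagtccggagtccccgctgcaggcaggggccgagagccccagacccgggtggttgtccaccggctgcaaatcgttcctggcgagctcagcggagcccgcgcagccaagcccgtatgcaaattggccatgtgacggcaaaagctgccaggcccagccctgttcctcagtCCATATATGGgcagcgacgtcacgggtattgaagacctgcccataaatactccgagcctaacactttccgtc
Btg2: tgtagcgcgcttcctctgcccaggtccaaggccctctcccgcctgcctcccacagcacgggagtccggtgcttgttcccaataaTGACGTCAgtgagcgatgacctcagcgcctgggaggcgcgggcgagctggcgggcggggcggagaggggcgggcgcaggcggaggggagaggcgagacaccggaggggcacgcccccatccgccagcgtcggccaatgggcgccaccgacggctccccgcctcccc

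Matches to 6 kinds of site were searched for on both strands: the CArG box, the MEF2 box, the cAMP response element TGACGTCA, the AP-1 site TGANTCA, the EGR-family site GCGGGGGCG and the TATA box TATAAA. Of the 32851 RefSeq windows of the same length, 1.63% held a CArG box, 3.19% a MEF2 box, 1.79% the cAMP response element, 7.81% the AP-1 site, 2.91% the EGR site and 13.6% the TATA box. Egr2 has 5 RefSeq windows and 4 of them held a CArG box. Windows starting at 67537619, 67537620 and 67537680 overlap and hold the same match, and the window starting at 67537316 holds a different one. The printed Egr2 run lies within an intron of longer Egr2 transcripts. Fos held TATAAA at 33 to 28 bases before its start, and Klf4 held the EGR site at 194 to 186 bases before its start. No window of these genes held the AP-1 site, which says only that those letters are not in the windows. Within a window the listed matches did not overlap one another, and a match is a description of letters and not evidence of binding.

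**Figure D1:**
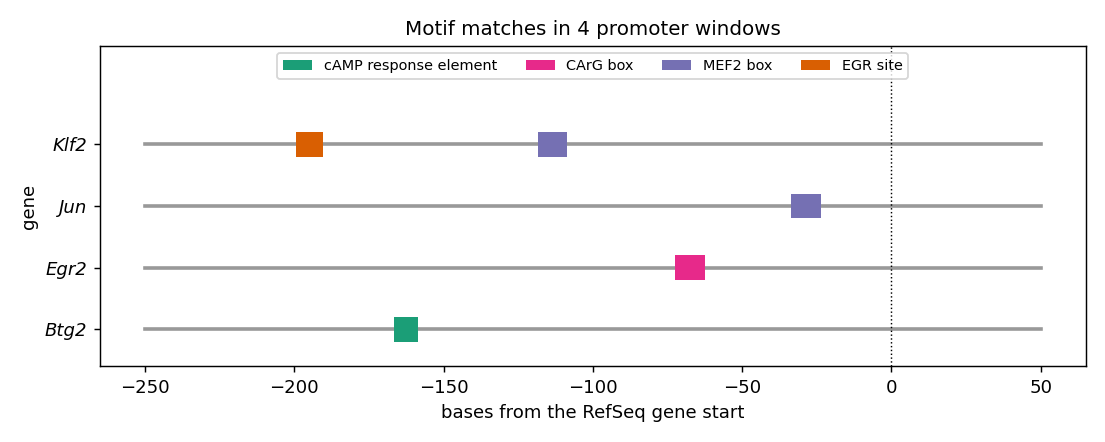
Positions of motif matches in the promoter windows of Klf2, Jun, Egr2 and Btg2. The horizontal axis is the distance in bases from the RefSeq gene start, the grey line is the window searched and each coloured block is a match, such as the MEF2 box of Jun at 33 to 24 bases before the start.

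Libraries held 4.56 to 8.68 M recovered reads (M, megareads; median 7.37 M). Jag1, the targeted gene, was lower in the mutant in 8 of 8 litter pairs. Its normalised counts were 20.2, 54.7, 39.7 and 18.8 in wild-type and 9.90, 11.4, 5.93 and 10.2 in mutant aortic valves. Its pulmonary values were 13.6, 19.2, 25.7 and 15.4 in wild types and 12.4, 4.70, 3.78 and 1.85 in mutants. The groups did not overlap in either valve, and the mean difference was -1.68 on the log2 scale (SE 0.32), with an adjusted p of 0.218 in limma and 0.0134 in DESeq2 on the recovered reads, which called it. For the labelled tissue, 10 markers of valve and cushion mesenchyme summed to 1803 to 12118 over the libraries. All 10 passed the filter on low values, so their presence alone does not check the tissue. The valve transcription factor Tbx20 ranged from 98.0 to 1744. For Tbx20, 5 libraries stood apart at 98.0 to 123, namely wild-type aortic replicates 1 and 3, mutant aortic replicate 1, wild-type pulmonary replicate 1 and mutant pulmonary replicate 1, against 549 or more in the other 11. Levels of 12 skeletal muscle markers split the libraries: their sum was 5.83 to 71.9 in 6 libraries, called muscle-poor below, and 818 to 2716 in the other 10, called muscle-rich. The muscle-poor libraries were replicates 2 and 4 of both wild-type groups and replicate 4 of both mutant groups, that is, 4 of 8 wild-type and 2 of 8 mutant libraries. They had 1733 to 3009 for the summed 14 endothelial and endocardial markers and 8977 to 12118 for the valve mesenchyme markers, against 292 to 1663 and 1803 to 8784 in the muscle-rich ones.

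Compared per kilobase of exonic sequence (GENCODE M21, GRCm38), Klf2 and Klf6 were the most abundant of the 10 genes, with 28.5 and 28.0 normalised counts per kilobase over the 16 libraries. Jun followed at 17.7, Klf4 at 16.1, Egr1 at 13.6, Nos3 at 10.3, Ier2 at 7.05, Btg2 at 6.00, Egr2 at 4.63 and Fos at 1.56. The library ranges of each pair of neighbours in this order overlapped. Klf2 alone ranged from 5.07 to 78.8 and Klf6 from 17.8 to 37.2, so no order between them can be read. Fos was the least abundant, and its highest library, at 4.91 per kilobase, lay below the lowest library of Jun, at 7.54. Fos and Jun, the partners in AP-1, were thus at very different levels in every library measured.

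The design compares mutants with wild types within each valve, and the valves with each other. None of the 10 genes passed the adjusted threshold in the aortic valve, in the pulmonary valve, in the mean of both, in the genotype by valve interaction or between valves (limma with Benjamini-Hochberg adjustment). In each of these 5 comparisons 0% of all 13963 genes tested passed. At an unadjusted p under 0.05 there were 0 of the 10 genes in the aortic valve, beside 1.4% of all genes; 1 in the pulmonary valve (Btg2), beside 3.13%; and 3 in the mean of both (Btg2, Egr2 and Fos), beside 2.79%. There were 0 in the interaction, beside 1.89%, and 0 between valves, beside 0.337%. Because the 10 genes were chosen with earlier results of these data known, these counts are not those of an independent set. On reads recovered from the values, edgeR's quasi-likelihood test and DESeq2 also called 0 of the 10 genes in all 5 comparisons, whereas over all genes DESeq2 called 2 in the pulmonary valve and 5 in the mean of both and edgeR called 0. In neither valve did the mutant and wild-type ranges of any of the 10 genes separate; of all genes, 0.824% lay wholly below and 0.759% wholly above the wild type in aortic mutants, and 1.05% and 0.938% in pulmonary mutants. Each library of a group came from a different litter in the labels, so the replicates of a group came from separate embryos. The p-values measure only the spread between these libraries, which may be partly technical.

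**Figure D2:**
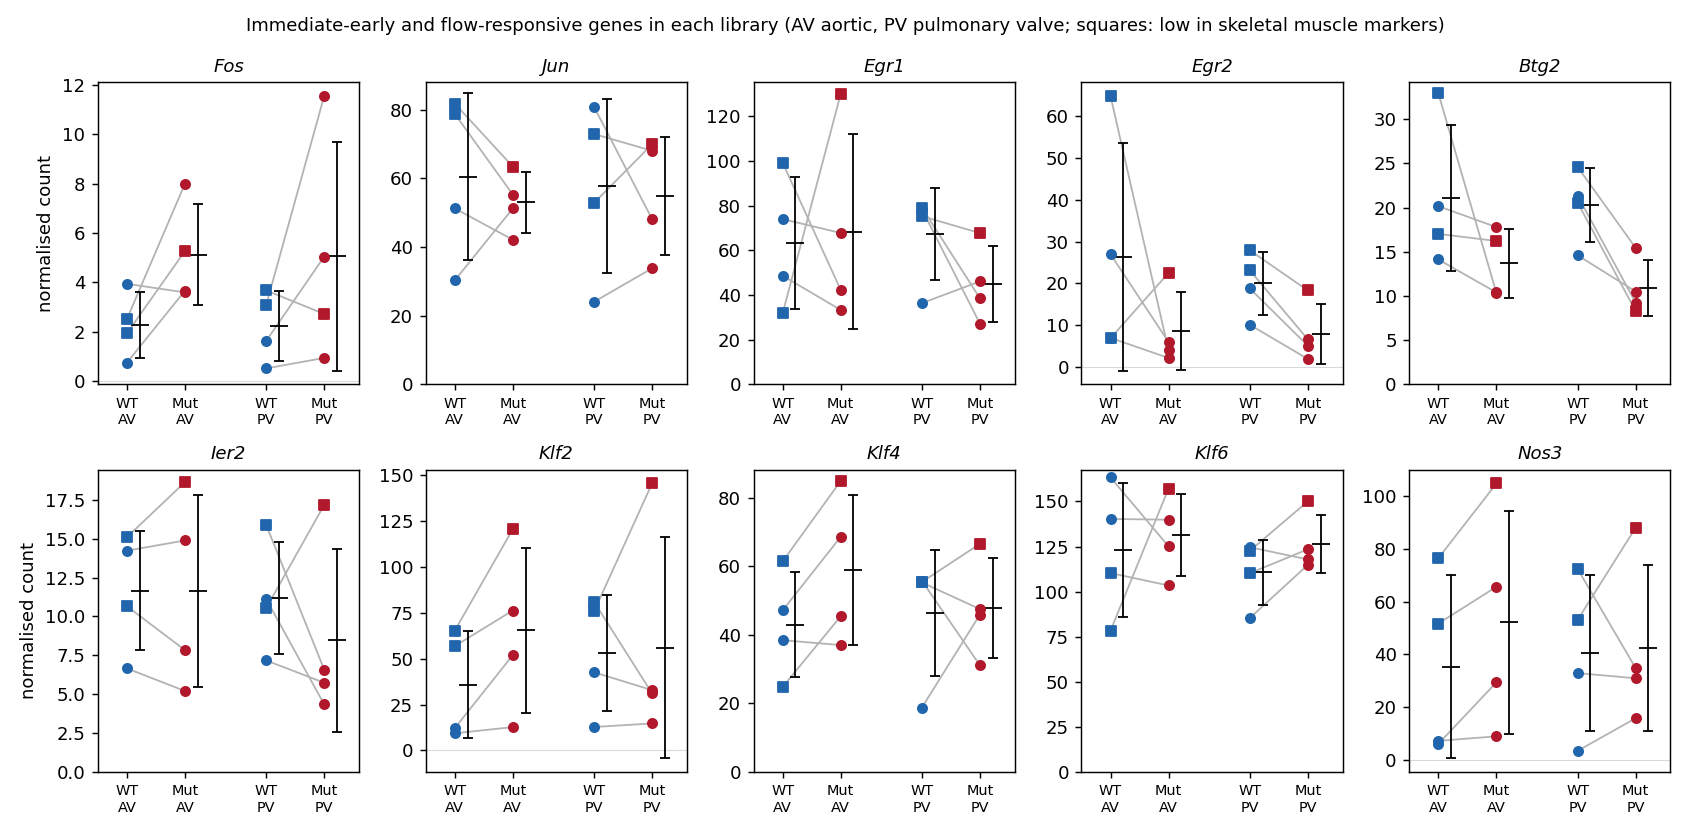
Normalised counts of the 10 genes in every library, for wild type (WT, blue) and mutant (Mut, red) in the aortic (AV) and pulmonary (PV) valve; grey lines join libraries with the same litter, squares are muscle-poor libraries, and black bars are the mean and SD of 4 libraries. Btg2 lies lower in the mutant of all 8 litter pairs, and Klf2 and Nos3 reach their highest values in squares of both genotypes.

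Btg2, the antiproliferative gene whose printed promoter holds the cAMP response element, was lower in the mutant library of every litter pair. Its normalised counts were 14.1, 32.9, 20.2 and 17.0 in wild-type and 10.4, 10.3, 17.8 and 16.2 in mutant aortic valves. They were 21.3, 24.6, 14.6 and 20.6 in wild-type and 9.24, 15.4, 10.5 and 8.28 in mutant pulmonary valves. The groups overlapped in both valves, because the highest mutant libraries lay above the lowest wild-type ones. The group means were 21.0 ± 8.27 against 13.7 ± 3.88 in the aortic and 20.3 ± 4.16 against 10.9 ± 3.18 in the pulmonary valve (wild type against mutant, SD, n = 4). On the log2(value + 1) scale the difference, mutant minus wild type, was -0.56 (SE 0.32) in the aortic valve, -0.85 (SE 0.32) in the pulmonary valve and -0.71 (SE 0.23) in the mean of both. The limma adjusted p for that mean was 1. Pairing libraries by litter, Btg2 was 1 of 54 genes, or 0.387% of those tested, that were lower in 8 of 8 pairs, and 5.03% of genes were lower in all 4 aortic and 6.9% in all 4 pulmonary pairs. Its pair differences ran from -1.58 to -0.07. Without wild-type aortic replicate 2, the library with the highest Btg2, the aortic difference was -0.33. Among the 11 libraries high in Tbx20 the mean difference was -0.72.

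Egr2, a zinc-finger factor known for its role in nerve-sheath cells and also induced as an immediate-early gene, had lower values in the mutant library in 7 of 8 pairs. Normalised counts were 6.93, 64.9, 27.0 and 6.84 in wild-type and 2.10, 3.92, 5.93 and 22.5 in mutant aortic valves. Wild-type pulmonary valves had 10.1, 23.1, 18.8 and 27.9, and mutant ones had 1.87, 6.58, 5.04 and 18.3. Replicate 4 of both mutant groups was the high library among mutants, and the exception among the pairs was aortic pair 4, in which the mutant was higher. Group means were 26.4 ± 27.3 against 8.60 ± 9.38 in the aortic and 19.96 ± 7.58 against 7.94 ± 7.17 in the pulmonary valve (SD, n = 4). The fitted differences were -1.38 (SE 0.74) and -1.48 (SE 0.74), and their mean was -1.43 (SE 0.52) with a limma adjusted p of 1. Without wild-type aortic replicate 2, which held the highest Egr2, the aortic difference was -0.77 and the mean -1.12, and among the 11 libraries high in Tbx20 the mean was -1.31. In all, 2 of the 10 genes were lower in at least 7 of 8 pairs, beside 3.58% of all genes.

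The Egr2 and Btg2 differences were followed into the libraries that were alike in skeletal muscle markers. Among the 10 muscle-rich libraries the mean difference of Egr2 was -1.60, and among the 6 muscle-poor ones, where each mutant group keeps 1 library that is assumed to vary like the others, it was -0.20. The corresponding differences of Btg2 were -0.50 and -0.93. Egr2 itself was at 6.84 to 64.9 in the muscle-poor and 1.87 to 27.0 in the muscle-rich libraries, with means of 27.2 and 8.82. Btg2 was at 8.28 to 32.9 and 9.24 to 21.3, with means of 19.9 and 14.4. More wild-type than mutant libraries were muscle-poor, and the part of this imbalance in the differences was not tested. With the mean level of the endothelial markers as a covariate, the mean differences were -1.53 for Egr2 (limma adjusted p = 0.319) and -0.72 for Btg2 (adjusted p = 0.423). Markers of other cells are given beside these differences. Of 8 tested neuronal and Schwann cell markers, 7 had higher mean values in the mutant and 1 lower, with a median of 0.81. Their summed level was 27.4 to 187 in wild-type and 87.0 to 182 in mutant aortic and 58.6 to 101 in wild-type and 80.8 to 503 in mutant pulmonary valves. The 8 tested erythroid markers had lower mean values in the mutant in 8 of 8, with a median of -0.80; their summed level was 1066 to 35001 in wild-type and 2819 to 5057 in mutant aortic and 2252 to 41105 in wild-type and 1945 to 8288 in mutant pulmonary valves. Wild-type aortic replicate 2, which had the highest Egr2 and Btg2, held the sum of 35001. Wild-type pulmonary replicate 1, which held the highest sum, 41105, had the lowest Egr2 of its group, at 10.1, and Btg2 at 21.3. The part of these markers in the result was not tested.

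Fos, the AP-1 subunit, had higher mean values in the mutants but rested on few reads. Normalised counts were 3.94, 2.51, 0.741 and 1.93 in wild-type and 3.59, 7.99, 3.66 and 5.26 in mutant aortic valves. They were 0.512, 3.07, 1.62 and 3.67 in wild-type and 0.935, 11.5, 5.04 and 2.72 in mutant pulmonary valves. These values correspond to 3 to 86 recovered reads per library, and the mutant was higher in 6 of 8 pairs. The ratio of group means was 2.25 in the aortic and 2.28 in the pulmonary valve. The fitted differences were 0.94 (SE 0.55) and 0.71 (SE 0.55), with a mean of 0.83 (SE 0.39) and a limma adjusted p of 1. Without mutant pulmonary replicate 2, which held the highest Fos, the pulmonary difference was 0.25.

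Jun, the partner of Fos, had fitted differences near 0 in both valves. Its values were 30.3, 78.8, 51.3 and 81.8 in wild-type and 51.2, 55.3, 42.1 and 63.4 in mutant aortic valves. Pulmonary values were 24.1, 72.9, 80.8 and 52.9 in wild-type and 33.8, 68.0, 48.1 and 69.9 in mutant valves. The groups overlapped almost completely, and the mutant was lower in 5 of 8 pairs. The mean difference was -0.05 (SE 0.26), with a 95% interval of -0.60 to 0.51. A long non-coding gene, Junos, overlaps Jun on the opposite strand over 232 exonic bases and is not among the genes of the deposited table. Since strand of counting is not given, reads of the pair could not be separated.

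Egr1, an early responder to growth factors and shear, had a fitted difference near 0 in the aortic and below 0 in the pulmonary valve, and neither exceeded the spread. Aortic wild types had 48.6, 99.2, 73.9 and 31.8 and aortic mutants 33.3, 42.3, 67.7 and 129.9, a difference of 0.03 (SE 0.43). Pulmonary wild types had 36.3, 79.1, 78.3 and 75.2 and pulmonary mutants 46.1, 38.5, 27.2 and 67.7, a difference of -0.58 (SE 0.43). The mutant was lower in 3 of 4 pairs in each valve, and in aortic pair 4 it was higher, as for Egr2. The interaction was -0.61 (SE 0.60, limma adjusted p = 1).

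Ier2, an immediate-early gene of growth-factor signalling, had values of 6.65, 10.7, 14.2 and 15.1 in wild-type and 5.20, 7.83, 14.9 and 18.6 in mutant aortic valves. Its pulmonary values were 7.16, 15.9, 11.1 and 10.5 in wild types and 5.73, 6.58, 4.34 and 17.2 in mutants. Groups overlapped in both valves, and the mutant was lower in 5 of 8 pairs. The mean difference was -0.29 (SE 0.32), with a 95% interval of -0.96 to 0.38. Levels of Ier2 were 10.5 to 18.6 in muscle-poor libraries and 4.34 to 14.9 in muscle-rich ones.

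Klf2, the shear-stress transcription factor whose promoter holds the printed MEF2 box, ranged from 9.37 to 145 over the 16 libraries. Normalised counts were 9.37, 56.9, 12.2 and 65.3 in wild-type and 12.7, 76.3, 52.0 and 121 in mutant aortic valves. They were 12.8, 81.1, 42.6 and 75.7 in wild-type and 14.7, 31.1, 32.9 and 145 in mutant pulmonary valves. In the aortic valve the mutant was higher in 4 of 4 pairs, and in the pulmonary valve in 2 of 4. The aortic difference was 0.93 (SE 0.81) and the pulmonary difference -0.15 (SE 0.81); the interaction was -1.08 (SE 1.14, limma adjusted p = 1). Within the endothelial-marker adjustment the aortic difference was 0.50 (limma adjusted p = 1). Leaving out 1 library moved the aortic difference between 0.47 (without wild-type aortic replicate 1) and 1.56 (without mutant aortic replicate 1). It moved the mean of both valves between 0.076 (without mutant pulmonary replicate 4) and 0.71 (without mutant aortic replicate 1).

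Nos3, the nitric oxide synthase of endothelium and a target of Klf2, followed the same libraries. Its values were 7.20, 51.7, 6.08 and 76.5 in wild-type and 8.91, 65.6, 29.4 and 105 in mutant aortic valves. Pulmonary values were 3.41, 72.4, 32.9 and 53.1 in wild-type and 15.8, 34.8, 30.9 and 88.1 in mutant valves. As for Klf2, the mutant was higher in 4 of 4 aortic and 2 of 4 pulmonary pairs; 5.99% of all genes were higher in all 4 aortic pairs. The aortic difference was 0.79 (SE 0.95), the pulmonary difference 0.38 (SE 0.95) and the mean 0.59 (SE 0.67, limma adjusted p = 1). Leaving out 1 library moved the aortic difference of Nos3 between 0.24 (without wild-type aortic replicate 3) and 1.44 (without mutant aortic replicate 1), and the mean between 0.14 (without wild-type pulmonary replicate 1) and 0.91 (without mutant aortic replicate 1). Gm15587 and Atg9b overlap Nos3 on the opposite strand, over 1040 and 294 exonic bases, and their reads could not be told apart from those of Nos3 without strand.

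The 5 libraries that stood apart in Tbx20 were the lowest of the 16 for both genes, with Klf2 at 9.37 to 14.7 against 31.1 or more in the other 11, and Nos3 at 3.41 to 15.8 against 29.4 or more. The share of all genes that separate in this way was not computed, so the separation is not shown to be particular to Klf2 and Nos3. Among the endothelial markers named below, Plvap also separated, at 1.36 to 6.68 against 7.19 or more, and Emcn, Npr3 and Cldn5 overlapped. Aortic pair 3, which had the largest aortic pair differences of Klf2 (2.01) and Nos3 (2.10), joins a wild-type library with Tbx20 at 123 to a mutant one at 763. Among the 11 libraries high in Tbx20, a restriction chosen after seeing the data, the aortic difference was 0.36 for Klf2 and -0.095 for Nos3, the pulmonary difference -0.26 and -0.13, and the mean 0.047 and -0.11. Nos3 thus lay above 0 in both valves with all libraries and below 0 in both without these 5. The part of tissue composition in these differences was not tested further.

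Both Klf2 and Nos3 were high where the endothelial markers were high. Muscle-poor libraries had Klf2 at 56.9 to 145 and Nos3 at 51.7 to 105, and muscle-rich ones at 9.37 to 76.3 and 3.41 to 65.6. The ranges overlapped for all 10 genes; over all genes, 2.6% lay wholly above and 3.68% wholly below in the muscle-poor libraries. The mean log2 level of the 14 endothelial markers was 6.06 to 6.90 in muscle-poor and 3.98 to 6.32 in muscle-rich libraries. Mutant aortic replicate 2 had the highest Klf2 and Nos3 of the 10 muscle-rich libraries, and also their highest endothelial mean, 6.32. Relative to the endothelial mean, Klf2 was at -1.26, -0.34, -0.72 and -0.51 log2 in wild-type and -0.71, -0.05, 0.25 and 0.03 in mutant aortic valves. On that scale the mutant was again higher in all 4 aortic pairs, whereas pulmonary wild types at -0.19, -0.10, -0.44 and 0.20 overlapped pulmonary mutants at -0.49, -0.55, -0.71 and 0.72. Nos3 was also higher in the mutant of all 4 aortic pairs on that scale, and its pulmonary groups overlapped. Its aortic values were -1.60, -0.48, -1.61 and -0.28 in wild types and -1.19, -0.26, -0.55 and -0.17 in mutants. No share over all genes was computed on that scale. Aortic pair 3 joins libraries with Tbx20 at 123 in the wild type and 763 in the mutant. With the endothelial mean as a covariate the mean genotype difference of Nos3 was 0.35 (limma adjusted p = 0.666), against 0.59 without it, and that of Klf2 was 0.19 (adjusted p = 0.854), against 0.39.

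**Figure D3:**
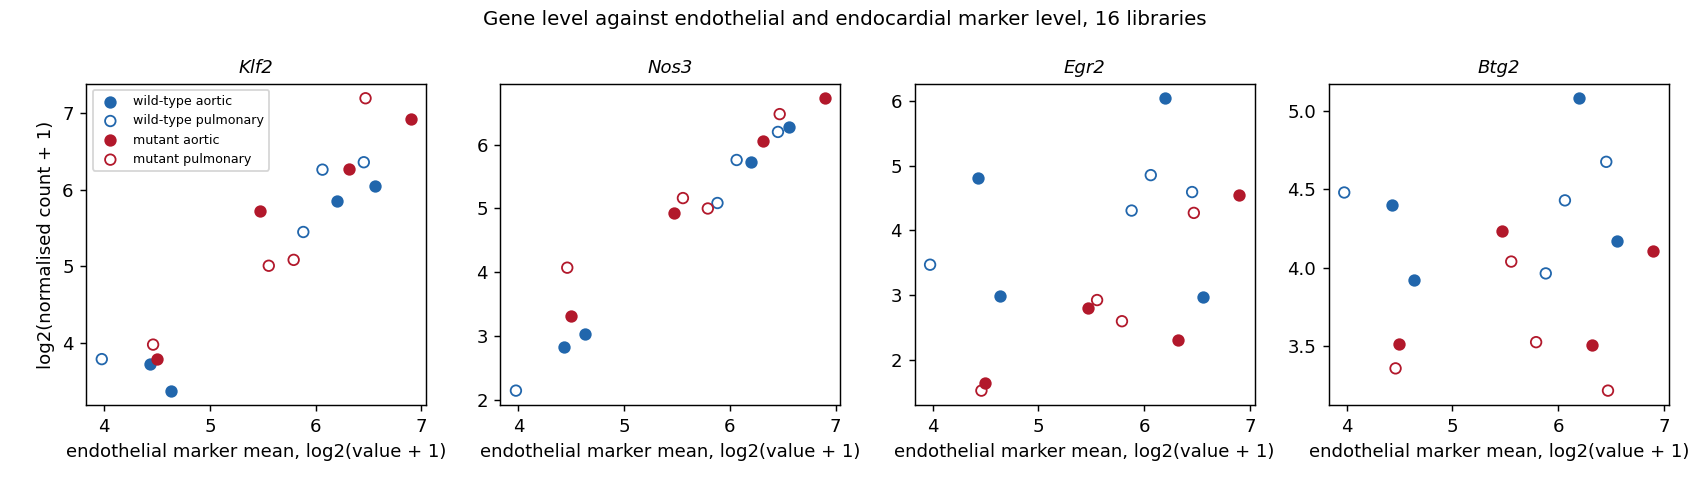
Level of Klf2, Nos3, Egr2 and Btg2, as log2(normalised count + 1), against the mean log2 level of 14 endothelial and endocardial markers, 1 point per library; blue is wild type, red mutant, filled aortic and open pulmonary. Klf2 and Nos3 climb with the marker level from 3.98 to 6.90, while Egr2 and Btg2 spread widely at each level.

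The genes whose pattern over the 16 libraries was most like that of Klf2 and Nos3 were named by the highest Pearson r of group-centred log2 values among 9450 genes with a mean value of at least 10. For Klf2 they were A230004M16Rik (r = 0.986), Cd34 (0.980), B2m (0.977), Ppp1r12c (0.976) and Itpr2 (0.976). For Nos3 they were Flt1 (0.992), Spon1 (0.990), Tek (0.989), Itpr1 (0.988) and Kcnc2 (0.987); Flt1 and Tek encode endothelial receptors and belong to the marker list. Within the 10 muscle-rich libraries these r values were 0.949 to 0.977 for Klf2 and 0.975 to 0.987 for Nos3, and within the 6 muscle-poor ones 0.711 to 0.871 and 0.584 to 0.923. For Fos the list was Tjap1 (0.869), Tpm3-rs7 (0.826), Gk5 (0.823), Ppil2 (0.798) and Rps3a3 (0.787), of which Tpm3-rs7 and Rps3a3 are near-copies of other genes whose reads may be shared. The points of each correlation share library, depth and tissue composition, so r is given as a description without a p.

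Klf4, the second flow-induced KLF factor, had values of 38.4, 24.8, 47.1 and 61.4 in wild-type and 37.0, 45.4, 68.6 and 84.9 in mutant aortic valves. Its pulmonary values were 55.8, 55.3, 18.8 and 55.4 in wild types and 31.1, 47.5, 45.9 and 66.6 in mutants. The mutant was higher in 3 of 4 aortic and 2 of 4 pulmonary pairs, and the groups overlapped in both valves. The mean difference was 0.28 (SE 0.27), with a 95% interval of -0.28 to 0.85. Its level ranged from 24.8 to 84.9 in muscle-poor and from 18.8 to 68.6 in muscle-rich libraries.

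Klf6, a KLF factor of injury and growth responses, had the smallest standard error of the 10 genes. Its values were 163, 110.3, 140.3 and 78.3 in wild-type and 125, 103, 139.9 and 157 in mutant aortic valves. Pulmonary wild types had 85.3, 110.2, 125 and 123, and pulmonary mutants had 115, 123, 118 and 150.1. The highest value was in a wild-type aortic library, and the mutant was higher in 4 of 8 pairs. The mean difference was 0.16 (SE 0.16), with a 95% interval of -0.17 to 0.50. Its range was 78.3 to 157 in muscle-poor and 85.3 to 163 in muscle-rich libraries.

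**Figure D4:**
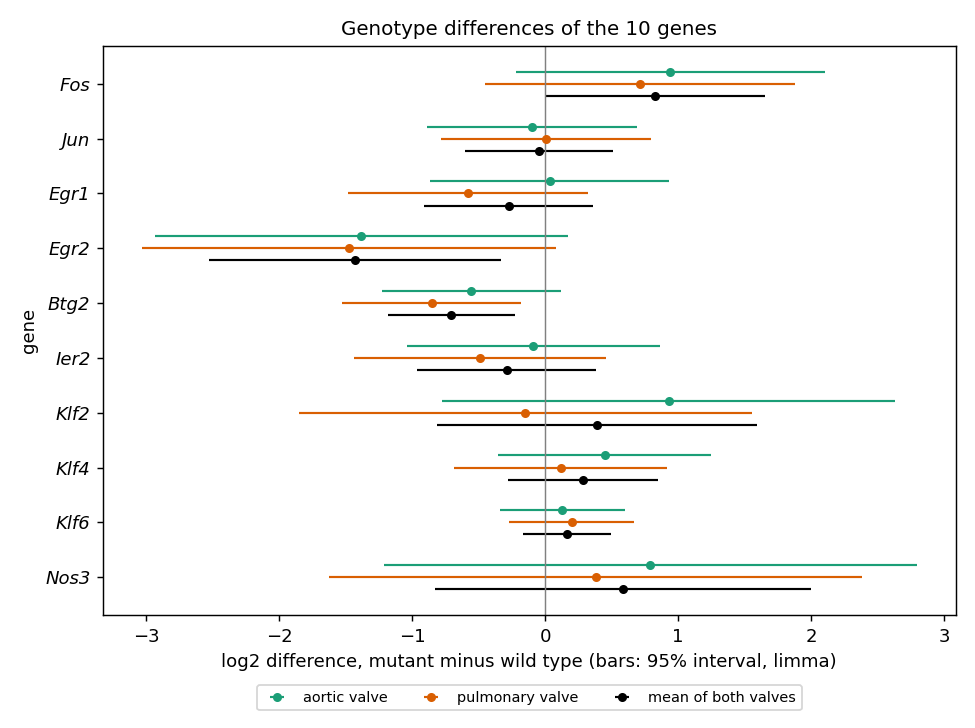
Log2 difference, mutant minus wild type, of the 10 genes in the aortic valve, the pulmonary valve and the mean of both; points are limma estimates over 16 libraries and bars their 95% intervals. The mean estimates run from -1.43 for Egr2 to 0.83 for Fos, and every adjusted p was 1.

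Between valves, pulmonary minus aortic over both genotypes, the 10 genes differed by -0.25 (Ier2, SE 0.32) to 0.18 (Klf2, SE 0.57). Library batch and valve cannot be told apart, since all aortic libraries form one batch and all pulmonary libraries the other. The genotype by valve interaction ran from -1.08 for Klf2 to 0.11 for Jun (SE 0.53), and every adjusted p was 1 in limma.

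Other genes of the same classes gave a background for these 10. Of 40 other immediate-early genes, 35 were tested and 0 were called in the mean genotype comparison; 22 lay above and 13 below 0, with a median of 0.08 against 0.01 over all genes. Fosb, Fosl1, Egr4, Dusp5 and Arc were not found by name among the genes of the deposited table, so they could not be tested. The smallest unadjusted p values were those of Plk2, a stress-responsive kinase (0.52, SE 0.26), Per1, a clock gene (0.36, SE 0.22), Ier5 (0.25, SE 0.17) and Errfi1, an inhibitor of EGF receptor signalling (0.34, SE 0.24), all with a limma adjusted p of 1. None of the 35 passed an unadjusted p of 0.05.

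Of 32 other genes of flow response and nitric oxide signalling, 0 were called; 21 lay above and 11 below 0, with a median of 0.06, and 2 had an unadjusted p under 0.05. The 4 named genes have the smallest p of this list, so their pair counts follow in part from that choice. Gch1, which makes the cofactor of nitric oxide synthases, was higher in the mutant in 7 of 8 pairs (0.99, SE 0.44, limma adjusted p = 1), beside 4.13% of all genes higher in at least 7. Its levels were low, and mutant pulmonary replicate 3 held 0. Krit1, a regulator of endothelial MEKK3 signalling upstream of Klf2, was lower in the mutant in 8 of 8 pairs, with pair differences from -1.32 to -0.03 (mean -0.45, SE 0.20, limma adjusted p = 1), as were 0.387% of all genes. Its values were 50.2, 42.1, 37.8 and 50.01 in wild-type and 34.03, 35.4, 30.0 and 33.7 in mutant aortic valves, which did not overlap, and 49.3, 84.0, 29.4 and 38.4 against 48.4, 33.1, 25.6 and 28.9 in pulmonary valves, which did. Nostrin, which traffics Nos3 protein, was lower in 7 of 8 pairs (-0.999, SE 0.47, limma adjusted p = 1), beside 3.58% of all genes lower in at least 7. Nostrin levels were also low, at 0 to 52 recovered reads per library, and mutant pulmonary replicate 2 held 0. Prkg1, a kinase downstream of nitric oxide, had a difference of -0.45 (SE 0.25).

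Of the 14 endothelial and endocardial markers, 0 were called and 9 lay above and 5 below 0 in the mean genotype comparison, with a median of 0.17. Emcn, which encodes the surface sialomucin endomucin, had a mean difference of 0.78 (SE 0.33, limma adjusted p = 1), Plvap was at 0.57 (SE 0.48), Npr3 at -0.28 (SE 0.28) and Cldn5 at -0.23 (SE 0.36). In the aortic valve alone the median of the list was 0.42, against 0.93 for Klf2 and 0.79 for Nos3, and in the pulmonary valve -0.06, against -0.15 and 0.38. The skeletal muscle markers had a median of 0.80, with 12 of 12 above 0.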

How the data were processed

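RNA was measured in 16 valve libraries, 4 per group. Per the labels' protocols, RNA from laser-captured valves was amplified (NuGen Ovation), libraries were made with Illumina reagents, and aortic and pulmonary libraries were made as 2 separate batches. Per the submitters' processing notes, build GRCm38 was used, with RSEM 1.2.3, cutadapt 1.6, CASAVA 1.8.2 and FastQC. Normalisation, low-value filter, strand setting and choice of regions were not given in the sources used here. What the authors deposited is a table of normalised signal, here called normalised counts, for 13964 genes, and 13780 identifiers had a symbol. Within each library 100% of values were whole multiples of 1 step at a tolerance of 0.05 read, and the scaling differed by at most 2.6e-08% from recomputed TMM factors. RSEM gives estimated counts, so the recovered reads may have been rounded, and RSEM shares reads between near-identical genes. On those reads edgeR 4.0.16 called 0 genes in each comparison and DESeq2 1.42.0 called 2 in the pulmonary valve and 5 in the mean of both.

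Values were tested as log2(value + 1) with limma 3.58.1 (R 4.3.3), two-sided, in 1 model with a mean for each of the 4 groups and a mean-variance trend. P-values were adjusted by Benjamini-Hochberg over the 13963 genes that reached 1 in 4 or more libraries, at a threshold of 0.05. Differences on this scale understate the change of low genes. On simulated counts for the mean genotype comparison (13934 genes) limma recovered 39% of changes of 1 log2 unit and 93% of changes of 2. Within the aortic valve it recovered 10% and 69% of these, and within the pulmonary valve 10% and 68%. The simulation changed 100 genes at each size, and the adjusted threshold eases as more genes change. In the deposited values limma called 0 of the 13963 genes, so these shares may overstate what could be found here. Libraries were called muscle-poor where 12 skeletal muscle markers had a mean log2 level under 3. Same-numbered libraries of a valve share a litter in the labels, 5 litters in all, of which 3 gave both valves, so they were treated as pairs; their deviations from group means correlated at 0.0107 to 0.642 over the aortic pairs and at -0.0349 to 0.490 over the pulmonary pairs. The labels do not tie valves to single embryos. The main model has no term for litter, so it treats both valves of a litter as independent.

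Named genes were the 10 genes, Jag1, Tbx20 and Mylpf, the 4 genes of each of 4 lists with the smallest p for the mean genotype effect, and the 5 genes most like Fos, Klf2 or Nos3. The genes and lists were chosen with earlier results of these data known. Promoter windows are from RefSeq (GRCm38.p6). Alternatives were other pseudocounts and filters, edgeR and DESeq2, library weights, the litter pair as a block, marker means as covariates, and leaving out each library. Restriction to muscle-poor or muscle-rich libraries, or to those with Tbx20 at 200 or more, was chosen after seeing the data. Other marker lists (cardiomyocyte, macrophage and blood cell, smooth muscle) had median mean genotype differences of -0.19, -0.08 and -0.09, with 0 genes called, and the valve mesenchyme list had -0.15.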

Additional observations from a re-analysis of the deposited data

Results flagged for a closer look

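In 44 sets of 4 libraries, each 1 gene in 1 group, the highest or lowest library was tested with Dixon's criterion, which chance passes in about 1 of 20 sets, and 3 sets passed. Egr1 in wild-type pulmonary replicate 1 was at 36.3, against 75.2 to 79.1 in the other 3 libraries. This library also held the highest summed erythroid markers of all 16, at 41105, and the lowest endothelial marker mean, at 3.98. Klf2 in mutant pulmonary replicate 4 was at 145, against 14.7 to 32.9 in the others, and this was the mutant pulmonary muscle-poor library. Klf4 in wild-type pulmonary replicate 3 was at 18.8, against 55.3 to 55.8 in the others. The library had the fewest recovered reads, 4.56 M. The part of these library properties in the values was not tested.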

How the results depend on the processing

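None of the 10 genes was called in any of the 31 alternative settings, of which 30 tested Fos, whose mean lay under the stricter filter. Genes called over the whole table were 2 (pulmonary) and 5 (mean genotype effect) with DESeq2, 2 (mean) with the litter pair as a replicate block, 2 (mean) with the muscle covariate, 2 (mean) and 1 (valve) with the endothelial covariate, 3, 1 and 3 (aortic, pulmonary, mean) in the 6 muscle-poor libraries and 3, 2 and 3 in the 10 muscle-rich ones, against 0; the cause was not tested. Jag1 was among the 5 of DESeq2. The 11 libraries high in Tbx20 gave 0 in each comparison. Leaving out 1 library gave 0 to 2 (aortic, 2 without wild-type aortic replicate 4) and 0 to 3 (mean, 3 without that library and 2 without wild-type pulmonary replicate 2). With the replicate block the mean effect had limma adjusted p = 0.772 (Btg2), 0.687 (Egr2) and 0.861 (Fos), so the block changed no call of the 10 genes. Differences that changed sign, none called, were as follows. Pulmonary: Jun -0.068 (edgeR), -0.060 (DESeq2) and -0.11 (library weights); Klf2 0.078 (edgeR), 0.090 (DESeq2), 0.24 (muscle covariate), 0.88 (muscle-poor) and 0.072 (muscle-rich); Nos3 -0.24 (weights); Jun -0.15 and Nos3 -0.13 (libraries high in Tbx20); Fos -0.23 and Ier2 0.38 (muscle-poor). Aortic: Egr1 -0.031 (weights), -0.064 (endothelial covariate) and -0.38 (muscle-rich); Egr2 0.047 and Ier2 0.52 (muscle-poor); Ier2 0.034 and Nos3 -0.095 (high in Tbx20); Jun 0.31 and Klf6 -0.31 (muscle-rich). Mean: Klf2 -0.10 and Nos3 -0.064 (weights); Nos3 -0.11 (high in Tbx20); Jun 0.044 (muscle covariate) and 0.21 (muscle-rich); Egr1 0.50, Ier2 0.45, Nostrin 0.18, Prkg1 0.095, Hspa1a 1.19 and Hsph1 -0.30 (muscle-poor); Hspa1a 0.19 (edgeR) and 0.19 (DESeq2); Klf6 -0.055, Errfi1 -0.0049, Npr3 0.10 and Cldn5 0.069 (muscle-rich). Leaving out 1 library moved the sign of aortic Egr1 (-0.34 to 0.31), Ier2 (-0.35 to 0.21), Jun (-0.39 to 0.076) and Klf6 (-0.069 to 0.28), of pulmonary Jun (-0.36 to 0.22), Klf2 (-0.78 to 0.30), Klf4 (-0.26 to 0.30) and Nos3 (-0.50 to 0.85), and of the mean of Jun (-0.23 to 0.059) and Hsph1 (-0.037 to 0.23). Depth limits Fos most, at 3 reads in its lowest library; amplified reads without molecular identifiers need not be independent molecules.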

Other observations

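Heat-shock genes, which can be induced by stress during dissection, were measured alongside. Of 11 listed and tested, 0 were called for the mean genotype effect, 7 lay above and 4 below 0 and the median was 0.01. The cochaperone gene Dnaja1 differed by 0.16 (SE 0.17), the small heat-shock gene Hspb1 by 0.21 (SE 0.28), Hsph1 by 0.13 (SE 0.25) and the inducible chaperone gene Hspa1a by -0.25 (SE 0.47), each with a limma adjusted p of 1. The summed level of the list was 3232 to 5066 in the 6 muscle-poor libraries and 4964 to 6922 in the 10 muscle-rich ones, while Hspa1a had means of 3.48 and 0.842 and Hspb1 of 39.3 and 27.5. The 35 other immediate-early genes summed to 1295 to 1846 in the 6 and 1199 to 1538 in the 10, and the 32 other flow-response genes to 2498 to 4078 and 1210 to 2688. Egr1 was at 31.8 to 129.9 in the 6 and 27.2 to 78.3 in the 10, and Jun at 52.9 to 81.8 and 24.1 to 80.8. No list or gene was tested between muscle-poor and muscle-rich libraries, since these are not groups of the design.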
